A study of Rattus norvegicus with 6 samples.

Results

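The MARK kinases, their activating kinase Stk11 and the tau-family proteins were followed in rat pituitary organ cultures with and without GnRH (gonadotropin-releasing hormone, the hypothalamic peptide that acts on the gonadotropes of the pituitary). The 8 genes Mark1, Mark2, Mark3, Mark4, Stk11, Mapt, Map2 and Map4 were represented by 17 of the 31042 probe sets on the arrays, taken as every probe set annotated with 1 of these symbols alone. The set was chosen on the measured difference between GnRH and control arrays, in which Mark2 stood among the larger rises, and the other genes were added as its relatives and substrates. All differences of these genes between the 2 groups are therefore given as a description, with no test. Mark1, Mark2 and Mark3 had 1 probe set each, Map2 had 2, and Mark4, Stk11, Mapt and Map4 had 3 each.

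Transcripts were measured on 1 array per sample in 3 untreated control cultures and 3 cultures given 10 nM GnRH. The sources used here give no strain, sex, age or length of treatment, and no label says whether cultures shared animals. The spread between samples may therefore be technical, and its source was not tested. Control 3 differed from the other controls in an X-linked and a Y-linked gene, as given below. Its distance from them is therefore not taken as technical alone. Values are log2 of the deposited linear intensities, and a difference is the average of the treated arrays less that of the 3 controls, with the standard error (SE) of the limma fit over all probe sets. Levels are compared between arrays for 1 probe set at a time, because different probe sets are not on a common scale.

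MARK kinases (microtubule affinity-regulating kinases) are serine/threonine kinases of the AMPK-related family. They phosphorylate tau and the related proteins MAP2 and MAP4 within the microtubule-binding repeats, which loosens these proteins from microtubules, and they set cell polarity as homologues of the PAR-1 proteins. Stk11 encodes LKB1, the kinase that switches on MARKs and other AMPK-related kinases by phosphorylating their activation loop. Tau and MAP2 are best known from axons and dendrites of neurons, whereas MAP4 is the widely expressed member of the family.

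The 6 arrays did not divide cleanly into the 2 groups. Across all probe sets, controls 1 and 2 had a Pearson correlation of 0.994 with each other, while control 3 had 0.983 and 0.986 with them and 0.988 to 0.991 with the GnRH arrays. The mean of the 4 probe sets of Xist, the RNA of the inactive X chromosome, was low in controls 1 and 2, at 4.12 and 3.98, and high in control 3, at 7.34, and under GnRH, at 7.14 to 7.16. Eif2s3y, a Y-linked gene, had 6.48 and 6.56 in controls 1 and 2 and 2.06 to 2.76 on the other 4 arrays. By these 2 genes controls 1 and 2 looked male and the other 4 arrays female, though no label gives the sex. All 3 GnRH arrays and only 1 control were on the female side. In the group differences sex and GnRH therefore cannot be fully told apart. The GnRH receptor gene Gnrhr lay higher on all 3 GnRH arrays (8.78, 9.45 and 8.94) than in controls (7.85, 7.78 and 8.16) on 1387465_a_at, and its other probe set showed the same separation (7.31, 7.76 and 7.37 against 6.35, 6.31 and 6.66). As a check of the tissue, Prl, the prolactin gene of lactotropes, had 13.83 to 14.15 in controls and 14.16 to 14.21 with GnRH.

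Of the 4 MARK kinases, Mark2 and Mark3 were higher on every GnRH array than in any control, while Mark1 and Mark4 showed no such separation upward. Mark2, also known as PAR-1b and a kinase of epithelial and neuronal polarity, had log2 values of 6.15, 6.21 and 5.41 in controls 1 to 3 and 7.42, 7.30 and 6.86 with GnRH (probe set 1368710_at). The groups did not overlap, control 3 was the lowest array and GnRH 3 the lowest of the treated ones. The difference was 1.27 ± 0.21 (SE), a ratio of 2.41, and ranked 22 among the rises of all probe sets. Without control 3 it was 1.01, and against control 3 alone it was 1.78. Control 3, which resembled the GnRH arrays in Xist, is 1 array, and the part of that division in the Mark2 values was not tested.

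Mark3, also called C-TAK1 and known for phosphorylating the phosphatase CDC25C and the scaffold KSR1, had 6.86, 7.18 and 7.02 in controls and 7.62, 7.60 and 7.40 with GnRH (1368831_at). Its values were tighter within each group than those of Mark2, with SDs of 0.16 and 0.12 against 0.45 and 0.29. The difference was 0.52 ± 0.11, a ratio of 1.44, and it was the same size whether GnRH was set against controls 1 and 2 (0.52) or against control 3 (0.53).

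**Figure D1:**
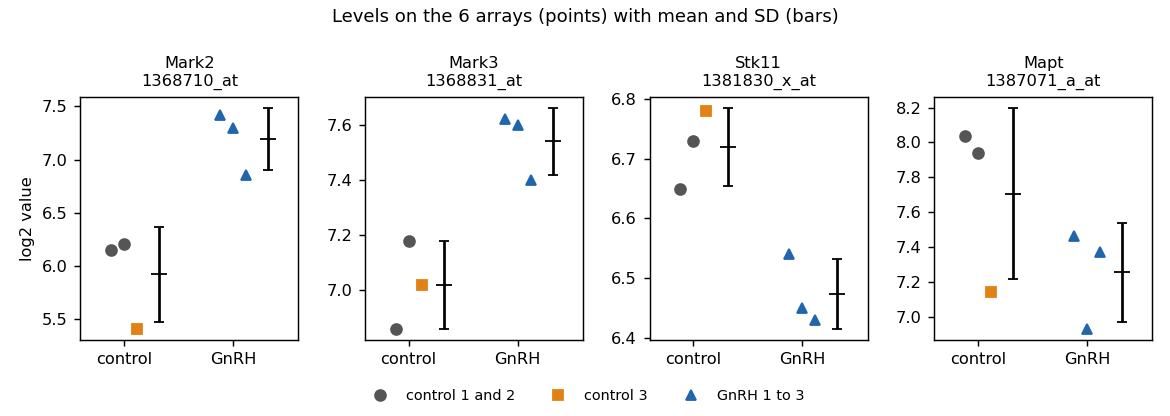
Log2 values of Mark2, Mark3, Stk11 and Mapt on each of the 6 arrays (points, with control 3 as a square), with the mean and SD of each group of 3 arrays (bars); each panel has its own scale. Mark2 and Mark3 lie higher on the 3 GnRH arrays than on any control, Stk11 lies lower, and in Mapt control 3 lies among the GnRH arrays.

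Mark1, a MARK known mainly from brain, had 7.04, 6.84 and 6.93 in controls and 7.01, 7.10 and 6.86 with GnRH (1387676_at). These ranges overlapped almost wholly, and the difference was 0.054 ± 0.098. Mark4, the MARK associated with centrosomes and cilia, was read by 3 probe sets that did not move one way. On 1394796_at it had 6.45, 6.61 and 6.40 against 6.57, 6.95 and 6.51, a difference of 0.19 ± 0.12 that rested mostly on GnRH 2. On 1375399_a_at it had 6.32, 6.35 and 6.16 against 6.43, 6.43 and 6.24 (0.089 ± 0.097). The remaining probe set, 1377360_at, ran the opposite way, with 6.69, 6.60 and 6.57 against 6.42, 6.56 and 6.47 (-0.14 ± 0.086). There the groups were separated by only 0.010, between control 3 and GnRH 2, so no direction can be given for Mark4 as a gene.

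The promoters of Mark2 and Mark3, the 2 members that lay higher together, are shown to compare their sequence. Each run holds the 250 bases before the annotated gene start, 5′ to 3′ on the gene's strand, from RefSeq (GRCr8), at chr1:213955150-213955399 (minus strand) for Mark2 and chr6:136448401-136448650 (plus strand) for Mark3. Capitals mark matches, on either strand, to any of the 6 motifs described after them.
Mark2: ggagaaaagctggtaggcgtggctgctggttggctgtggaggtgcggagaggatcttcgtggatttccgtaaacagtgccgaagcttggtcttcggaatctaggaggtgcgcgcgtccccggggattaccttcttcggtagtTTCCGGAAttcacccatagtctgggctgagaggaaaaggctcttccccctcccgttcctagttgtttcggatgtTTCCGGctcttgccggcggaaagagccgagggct
Mark3: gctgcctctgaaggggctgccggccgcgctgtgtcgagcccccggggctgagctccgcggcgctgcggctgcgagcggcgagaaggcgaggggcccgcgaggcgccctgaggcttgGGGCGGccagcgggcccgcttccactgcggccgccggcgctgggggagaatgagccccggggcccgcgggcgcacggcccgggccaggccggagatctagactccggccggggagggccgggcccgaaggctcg

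The motifs were the CRE core TGACGT, the AP-1 site TGANTCA, the NR5A site AAGGTCA (for SF-1, the gonadotrope factor), the EGR site GCGNGGGCG, the ETS core CCGGAA and the GC box GGGCGG, of which the last can overlap the EGR site. Mark2 held 3 matches to the ETS core, 2 of them overlapping on opposite strands 101 to 108 bases before the start and the other at 29 to 34 bases, and none to the other motifs. At least 1 ETS core stood in 12.6% of 33469 promoters of the same length. Mark3 held 1 GC box, a motif found in 30.5% of promoters, and no ETS core. Mark4, for which no direction could be given, held 2 GC boxes, while Mark1, Stk11 and Map2 held none. The shares for the other motifs were 6.95% for the CRE core, 6.34% for the AP-1 site, 3.99% for the NR5A site and 4.29% for the EGR site. The windows also differed in composition, with 57.6% G and C in Mark2 and 80.4% in Mark3, against a median of 51.2%. Among the other members with an entry this share ran from 32% in Map2 to 86% in Mark1. The motifs were chosen after the sequences had been seen, and a match describes letters and not a bound site. Of the 8 genes 6 had a promoter entry.

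Stk11, the upstream kinase, lay slightly lower with GnRH on each of its 3 probe sets. On 1381830_x_at it had 6.65, 6.73 and 6.78 in controls and 6.54, 6.45 and 6.43 with GnRH, a difference of -0.25 ± 0.086 without overlap. The suffix of this probe set marks probes that may also bind other transcripts. On 1375238_at the values were 4.06, 4.05 and 4.10 against 3.94, 3.94 and 3.85 (-0.16 ± 0.083), again without overlap, but the mean lay at percentile 10.7 of all probe sets, and no detection call shows whether it was above background. The remaining one, 1375364_at, had 5.36, 5.55 and 5.49 against 5.22, 5.37 and 5.36 (-0.15 ± 0.092), and its groups overlapped between control 1 and GnRH 2 and 3. In Stk11 control 3 stayed with the other controls, and its 3 differences without control 3 were -0.22, -0.15 and -0.14.

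Mapt, which encodes tau, had its highest values in controls 1 and 2, with control 3 at or near the level of the GnRH arrays. On 1387071_a_at the values were 8.04, 7.94 and 7.14 for controls 1 to 3, and 7.46, 6.93 and 7.37 for GnRH, so that control 3 lay inside the range of the treated arrays. The difference between the groups was -0.46 ± 0.22. It was -0.74 against controls 1 and 2 but 0.11 against control 3, which is a change of direction. Probe set 1368138_at had 8.20, 8.01 and 7.77 against 7.81, 7.58 and 7.75 (-0.28 ± 0.12), with -0.40 against controls 1 and 2 and -0.061 against control 3. Probe set 1368137_at had 7.85, 7.73 and 7.30 against 7.49, 7.34 and 7.42 (-0.21 ± 0.13), with -0.37 and 0.12 in the same order. On all 3 Mapt probe sets controls 1 and 2 were the highest of the 6 arrays.

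Map2, the dendritic relative of tau, had 2 probe sets with different patterns. The probe set 1388152_at had 8.10, 7.90 and 7.81 in controls and 7.73, 8.12 and 7.86 with GnRH, which overlapped throughout (-0.034 ± 0.12). On the dimmer 1368411_a_at, whose mean lay at percentile 34.1 of all probe sets, it had 5.59, 5.67 and 5.33 against 5.22, 5.23 and 5.32 (-0.28 ± 0.10). Control 3 and GnRH 3 were 0.015 apart there, so the groups were barely separated, and controls 1 and 2 again stood above all other arrays.

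Map4, the family member of most non-neuronal cells, showed overlapping groups throughout. Its 3 probe sets had differences of 0.097 ± 0.090 (1371607_at), 0.026 ± 0.087 (1373268_at) and 0.057 ± 0.094 (1392254_at). On 1373268_at the controls had 7.43, 7.44 and 7.45 and the GnRH arrays 7.38, 7.45 and 7.57. On 1371607_at the values were 7.97, 7.88 and 7.86 against 8.10, 7.90 and 7.99, and on 1392254_at 6.62, 6.48 and 6.36 against 6.59, 6.50 and 6.54.

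**Figure D2:**
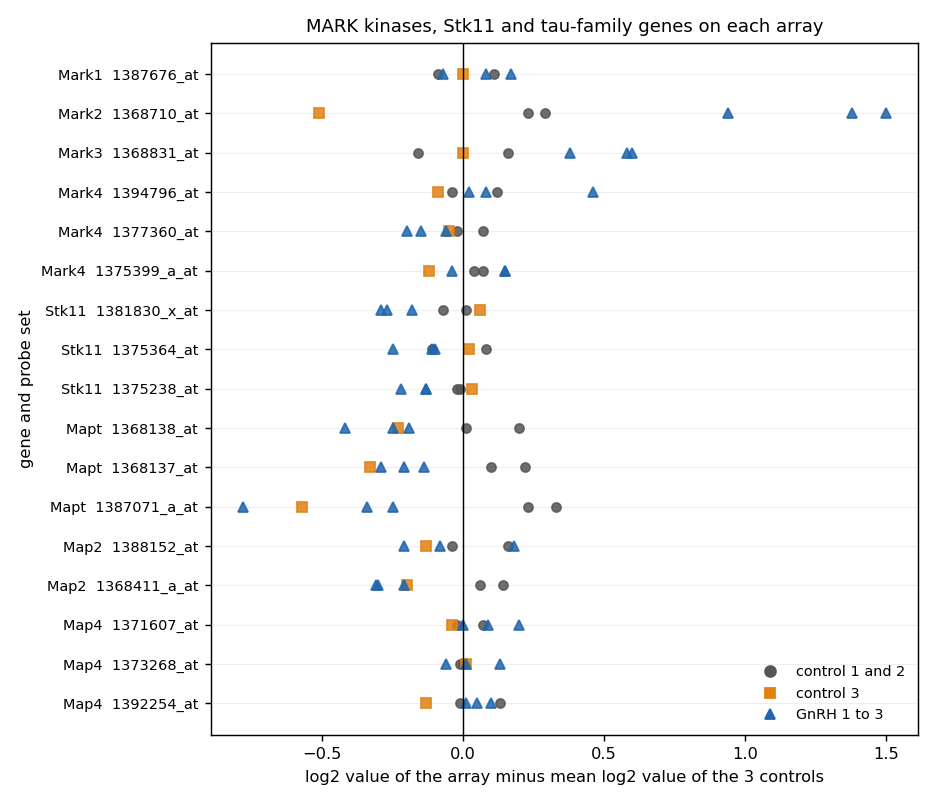
Log2 value of each array minus the mean of the 3 controls for the 17 probe sets, 1 row each, with controls 1 and 2 as circles, control 3 as a square and the GnRH arrays as triangles. Mark2 and Mark3 are the rows with triangles clearly to the right of all controls, and in the 3 Mapt rows control 3 lies with the triangles on the left.

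Counted over the set, 8 of 17 probe sets had a difference above 0 and 9 below, with a median of -0.034 against -0.025 over all probe sets. The groups did not overlap on 6 of the 17, against 16.7% of all probe sets. Of these, Mark2 and Mark3 lay higher with GnRH, against 7.06% of all probe sets, and 1 probe set of Mark4, 1 of Map2 and 2 of Stk11 lay lower, against 9.62%. At the threshold of the fit (limma, Benjamini-Hochberg adjusted p under 0.05) 1 of the 17, that of Mark2, was counted, against 0.464% of all probe sets in either direction and 0.422% upward. Nothing is read from these counts, since the members were chosen with this contrast known. Mark2 was past the threshold when control 3 or GnRH 3 was left out and not when any of the other 4 arrays was. Without control 3 the count was 6, adding Mark3, the 3 Mapt probe sets and 1368411_a_at of Map2, in a fit that set arrays of low Xist against arrays of high Xist.

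Control 3 took different places in Mark2, Mark3 and Stk11 than in tau. Controls 1 and 2 lay above all 4 other arrays on 5 of the 17 probe sets, namely the 3 of Mapt, 1 of Map2 and 1 of Mark4, against 21.0% of all probe sets. This pattern was looked for after the values were seen. Relative to controls 1 and 2, control 3 was lower by -0.33, -0.49 and -0.85 on the Mapt probe sets 1368138_at, 1368137_at and 1387071_a_at, about as far as the GnRH arrays. In Mark2 control 3 was also lower, by -0.77, but the GnRH arrays lay 1.01 above. In Mark3 control 3 differed from controls 1 and 2 by -0.004, and in Stk11 by 0.03 to 0.09.

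**Figure D3:**
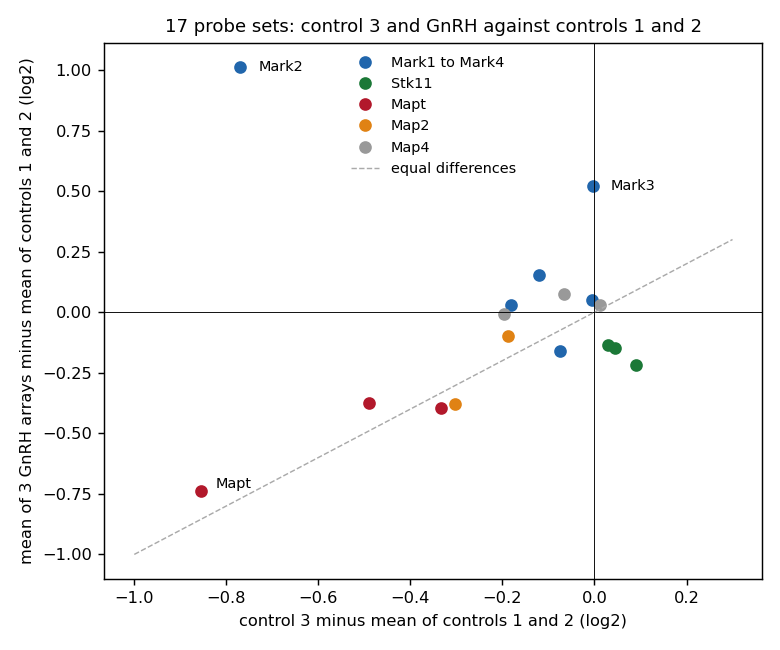
For each of the 17 probe sets, the log2 value of control 3 minus the mean of controls 1 and 2 (horizontal) and the average of the treated arrays minus those same 2 controls (vertical); both axes share those controls, so points tend toward the dashed line of equal differences. Mapt lies near that line, whereas Mark2 lies at -0.77 and 1.01 and Mark3 at -0.004 and 0.52.

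Tau and MAP2 are best known from neurons, so markers of the posterior lobe, which holds axons of hypothalamic neurons and the glia-like pituicytes, were examined beside them. In bulk tissue, fewer cells of a type and less RNA per cell cannot be told apart. Of 14 markers of posterior lobe neurites and pituicytes, all measured, 0 passed the limma threshold, against 0.605% of all named genes. At an unadjusted p under 0.05 there were 5, against 13.2% of all named genes. Of the differences 8 were above 0 and 6 below, with a median of 0.065. The summed linear level was 1606 to 1951 in controls and 1385 to 1716 with GnRH. Probe sets are not on a common scale, so bright ones weigh most in such a sum. It also includes Gfap, whose difference of -1.97 was the lowest of the list, so no shared fall of the markers is read from it. Gfap, an intermediate filament of glia picked out after its values were seen, had 7.92, 8.97 and 8.94 in controls and 7.69, 6.47 and 5.76 with GnRH (limma adjusted p = 0.0835). In Gfap control 3 stood with control 2 and not with the GnRH arrays, unlike in Mapt. The neuronal filament genes Ina and Nefl lay higher without overlap, opposite to the direction of the Mapt group differences. Such separation was found on 7.06% of all probe sets upward and on 9.62% downward. The other neuronal filament genes differed less, with 0.117 for Nefh, without overlap, and 0.094 for Nefm and 0.079 for Prph, both with overlap. Ina, with the smallest p-value of the list, had 6.93, 6.88 and 7.11 against 7.38, 7.81 and 7.51 (limma adjusted p = 0.0705). Nefl had 6.85, 6.81 and 6.78 against 7.23, 7.56 and 7.00 (limma adjusted p = 0.195). Both hormone genes of the posterior lobe's axons had group differences below 0, as Mapt did. In both, unlike in Mapt, every GnRH array also lay below control 3. Avp had 6.94, 7.34 and 6.89 against 6.67, 6.76 and 6.03, without overlap (limma adjusted p = 0.264), and Oxt had 7.51, 7.69 and 7.91 against 7.39, 7.58 and 6.86 (limma adjusted p = 0.347). Control 3 was the lowest of the controls in Avp, close to control 1, and the highest in Oxt. Ina, Nefl, Avp and Oxt were also picked out after their values were seen. Their part in the Mapt values was not tested. In the markers of other cells, the limma threshold was passed by 0 of 7 for folliculostellate and stem-like cells, 0 of 8 for endothelium, 0 of 10 for macrophages and leukocytes and 0 of 9 for fibroblasts and pericytes. At an unadjusted p under 0.05 these counts were 3, 1, 1 and 5 in the same order, against the same 13.2%. Among markers of hormone cells 2 of 13 passed, Gnrhr and Nr5a1, against the same 0.605%, and 4 had an unadjusted p under 0.05. Their summed linear level, in which very bright genes such as Prl weigh most, was 50113 to 55152 in controls and 53624 to 56489 with GnRH.

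Genes around the MARK kinases were then tested in lists that hold no member, each gene by its probe set with the highest mean. Of the 14217 named genes, 0.605% passed the limma threshold and 13.2% had an unadjusted p under 0.05, and their median difference was -0.0089. The unadjusted counts given for each list are to be read against that 13.2%. The genes named in each list are those with the 3 smallest p-values, a choice that favours groups without overlap. Groups did not overlap on 7.06% of all probe sets upward and on 9.62% downward. Leaving out control 3 raised the count past the threshold from 144 to 2309 of all probe sets, so calls gained without it are part of that rise. With Xist as a covariate the count was 378. In that fit control 3 alone of the controls had an Xist level near that of the GnRH arrays. Differences given with this covariate therefore rest largely on control 3, a single array, and calls gained with it carry that limit. The one list with a called gene was that of MARK substrates other than tau proteins, in which 1 of 14 genes rose, 0 fell and 13 did not pass. This was Hdac5, a class IIa histone deacetylase whose phosphorylation sends it out of the nucleus. Hdac5 had 6.44, 6.41 and 6.51 in controls and 6.99, 6.94 and 6.90 with GnRH, a rise of 0.49 ± 0.083 (limma adjusted p = 0.0393). Control 3 stood with the other controls. The call was lost with each array left out other than control 3 (limma adjusted p from 0.099 to 0.191), with Xist as a covariate (0.0787) and with the mean of both Hdac5 probe sets (0.39, 0.0985). The second Hdac5 probe set had 5.11, 5.18 and 4.79 against 5.27, 5.53 and 5.14, which overlapped.

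In that substrate list 12 of 14 differences were above 0, with a median of 0.12, and 5 had an unadjusted p under 0.05, 4 of them above 0. Without control 3, 9 of the 14 were above 0 and the median was 0.13. Dvl1, an intracellular mediator of Wnt signals, had a difference of 0.27 ± 0.11 (limma adjusted p = 0.37), and Pkp2, the desmosomal plakophilin, 0.22 ± 0.092 (limma adjusted p = 0.377). Neither passed the test. Another Dvl1 probe set, 1397351_s_at, had a larger difference of 0.63 ± 0.14, also short of the threshold (limma adjusted p = 0.088), and 1384698_at had 0.022 ± 0.091. Without control 3 the difference of Dvl1 was 0.15.

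Among the LKB1 complex and upstream regulators of MARK, 0 of 21 genes passed the limma threshold (2 at an unadjusted p under 0.05), 9 differences were above 0 and 12 below, and the median was -0.026. Prkcz and Prkci encode atypical protein kinases C that restrain MARK at cell junctions. Prkcz had 6.44, 6.30 and 7.11 against 7.01, 7.36 and 6.96, with control 3 among the GnRH arrays (0.49 ± 0.19, limma adjusted p = 0.339). Without control 3 it was 0.74 and past the threshold (limma adjusted p = 0.00731), and with Xist as a covariate 0.039. Prkci had 6.99, 7.02 and 6.97 against 6.82, 6.72 and 6.83 (-0.21 ± 0.083, limma adjusted p = 0.353), but its other 2 probe sets had -0.047 ± 0.10 and -0.003 ± 0.090 with overlapping groups. Pard6g, a partner of these kinases in the polarity complex, had -0.23 ± 0.11 (limma adjusted p = 0.435) on a dim probe set, and -0.14 without GnRH 3.

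Of the AMPK subunits and other AMPK-related kinases, which share LKB1 with the MARKs, 0 of 14 passed the limma threshold (3 at an unadjusted p under 0.05) and the median was 0.025. Sik1, a kinase induced by cAMP in many endocrine cells, had 7.45, 7.99 and 7.87 in controls and 8.37, 8.57 and 8.19 with GnRH (0.60 ± 0.15, limma adjusted p = 0.126). Its groups did not overlap on this probe set or on the other one, where the difference was 0.60 ± 0.16, against 7.06% of all probe sets upward. Brsk1, a kinase of synapses and neuronal polarity, had 0.40 ± 0.12 (limma adjusted p = 0.223), and Prkaa2, a catalytic subunit of AMPK, -0.32 ± 0.11 (limma adjusted p = 0.301). Without control 3 Sik1 (0.65, limma adjusted p = 0.03) and Prkaa2 (-0.43, 0.0202) passed, and without control 2 Prkaa2 was at -0.21. With Xist as a covariate Brsk1 passed (0.63, limma adjusted p = 0.0282) and Prkaa2 was at -0.10.

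Differences were small among the other tau kinases and the tau phosphatases. Of the 22 measured genes 0 passed the limma threshold (1 at an unadjusted p under 0.05), 15 differences were above 0, and the range was -0.17 to 0.23 with a median of 0.023. Cdk5, a proline-directed tau kinase, had 0.23 ± 0.096 (limma adjusted p = 0.373), Ttbk2, a tau-tubulin kinase, -0.17 ± 0.082 (limma adjusted p = 0.432) and Gsk3a, a glycogen synthase kinase, 0.18 ± 0.094 (limma adjusted p = 0.463). The other 2 probe sets of Ttbk2 had 0.027 ± 0.11 and 0.099 ± 0.11, and without control 3 Gsk3a was at 0.11.

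Other microtubule-associated and plus-end proteins held some of the larger differences outside the MARK kinases, although 0 of 34 passed the limma threshold (8 at an unadjusted p under 0.05) and the median was -0.069. Map7d1, a relative of the kinesin-recruiting protein MAP7, had 7.14, 7.37 and 7.30 in controls and 7.89, 8.17 and 7.69 with GnRH (0.64 ± 0.12, limma adjusted p = 0.0604). Clip2, a protein of growing microtubule ends, had 7.05, 7.11 and 6.87 against 7.49, 7.45 and 7.48 (0.46 ± 0.092, limma adjusted p = 0.0655). Spast, which encodes the microtubule-severing enzyme spastin, had 0.61 ± 0.16 (limma adjusted p = 0.157). In each of the 3, named for their small p-values, the groups did not overlap, against 7.06% of all probe sets upward. The second Map7d1 probe set showed nothing of the kind, at -0.089 ± 0.11, whereas the second of Spast had 0.31 ± 0.094. Map7d1 passed with robust variances (limma adjusted p = 0.0453), Clip2 with Xist as a covariate (0.0214), and both with array weights (0.00802 for Map7d1 and 0.0101 for Clip2) and without control 3 (0.0164 and 0.0209).

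Tubulins, the subunits of the microtubule itself, had mostly negative differences. Of 12 measured 0 passed the limma threshold (3 at an unadjusted p under 0.05, all lower), 9 differences were below 0, and the median was -0.11. The median stayed below 0 in all 3 other normalizations, from -0.16 to -0.090. Tubb2a, a beta-tubulin, had 10.38, 10.54 and 10.38 against 10.13, 10.01 and 10.21 (-0.32 ± 0.093, limma adjusted p = 0.213). Tubb4b had -0.26 ± 0.092 (limma adjusted p = 0.293) and Tubb2b -0.32 ± 0.12 (limma adjusted p = 0.318). Tubb2b was at -0.18 without control 3 and passed with Xist as a covariate (-0.565, limma adjusted p = 0.0282). In these 3 beta-tubulins, whose close sequences make the share of each uncertain, every GnRH array lay below every control. That held for 9.62% of all probe sets, and these 3 were named for their small p-values.

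Of the kinesin, dynein and dynactin motor subunits, 0 of 32 passed the limma threshold (4 at an unadjusted p under 0.05), and the median was 0.037. Dync1i1, an intermediate chain of cytoplasmic dynein, had -0.37 ± 0.10 (limma adjusted p = 0.185), Dctn1, the large dynactin subunit, 0.36 ± 0.12 (limma adjusted p = 0.264) and Kif2a, a microtubule-depolymerising kinesin, 0.33 ± 0.11 (limma adjusted p = 0.284). All 3 probe sets of Kif2a lay higher with GnRH without overlap, against 7.06% of all probe sets. Their differences were 0.33, 0.34 and 0.43, but control 3 was the control nearest to the GnRH arrays on each. Without control 3 Kif2a (0.45, limma adjusted p = 0.0165) and Dync1i1 (-0.45, 0.0149) passed, and with Xist as a covariate Dctn1 did (0.57, 0.0499), while Kif2a was at 0.12 and Dync1i1 at -0.20.

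**Figure D4:**
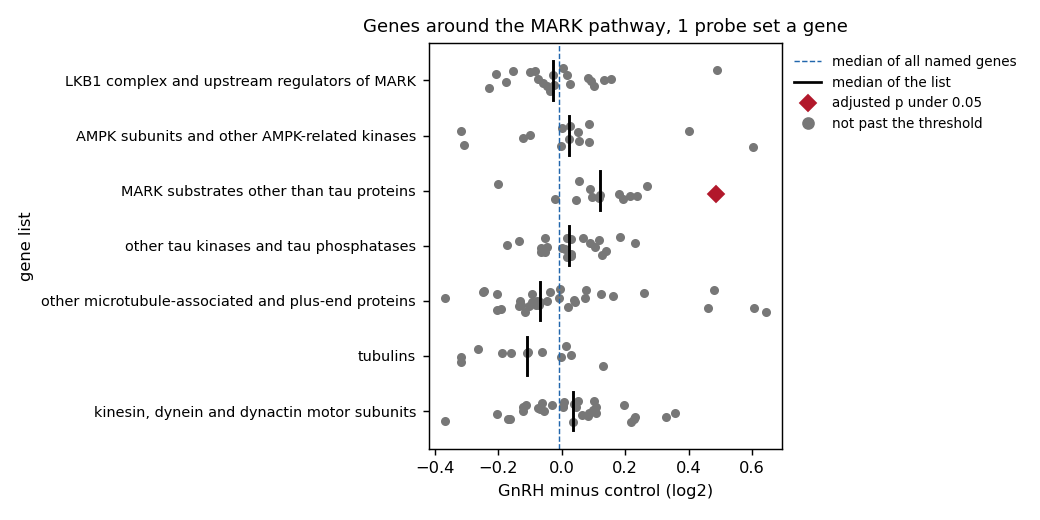
GnRH minus control difference (log2) of each measured gene in the 7 lists around the MARK pathway, with the median of each list (black bar) and of all named genes (dashed line). Hdac5, the diamond at 0.49, is the 1 gene past the threshold; the tubulins lie mostly left of 0 and the MARK substrates mostly right.

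The genes whose pattern over the 6 arrays was most like that of Mark2 were Tnrc18 (Pearson r = 0.9985), Cmklr1 (0.9947), Pgp (0.9946), Tmem132a (0.9935) and Zdhhc8 (0.9935), given as a description over 6 arrays that include the difference between the groups. Each was lower in control 3 than in controls 1 and 2 and higher on all GnRH arrays. Their differences were smaller than that of Mark2, at 0.36 for Tnrc18, 0.18 for Cmklr1, 0.38 for Pgp, 0.72 for Tmem132a and 0.43 for Zdhhc8. With so few arrays a high r alone ties no gene to Mark2. Of the 31042 probe sets, 181 had r of at least 0.95 and 509 of at least 0.9. Within the set, Mark3 had r = 0.89 with Mark2, and the 3 Stk11 probe sets had -0.86, -0.72 and -0.80. The Mark4 probe sets had 0.654, -0.609 and 0.780 and those of Map4 0.647, -0.048 and 0.581, while the rest lay between -0.536 and 0.395. These values too include the difference between the groups.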

How the data were processed

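Gene expression was measured on 1-colour arrays in 3 control and 3 GnRH-treated rat pituitary organ cultures. The authors deposited intensity values on a linear scale, made with RMA according to the submitters' processing notes. Array software and filters are not given in the labels. Values were turned into log2 with no pseudocount or filter. Samples were grouped by their titles. The members, lists and motifs were chosen with earlier results of these data known, and the lists came from general knowledge. Of the probe sets, 20826 had 1 symbol, 436 several and 9780 were not listed. Symbols were updated by gene identifier. The 2 groups were set against each other in a 2-sided fit without covariates (limma 3.58.1, R 4.3.3, functions lmFit and eBayes), with Benjamini-Hochberg adjustment over all 31042 probe sets and a threshold of 0.05. The fit was tested on simulated data. Members were named by every probe set, list genes by the 3 smallest p-values per list, and Mark2-like genes by the 5 highest correlations. The number of arrays limits the precision. Alternatives were other normalizations, a filter on dim probe sets, a pseudocount of 16, other variance models, array weights, a replicate block, an Xist covariate, a threshold of 0.10, the mean of a gene's probe sets and each array left out.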

Additional observations from a re-analysis of the deposited data

How the results depend on the processing

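The difference of Mark2 was above 0 in all 16 alternative fits, from 1.01 to 1.74, the latter with the Xist covariate; as Mark2 was chosen on this difference, the range is a description. Likewise, Mark3 was above 0 in 16 (0.44 to 0.60) and the 3 Stk11 probe sets below 0 in every fit that held them. Mapt turned to 0.087 (1368137_at) and 0.061 (1387071_a_at) with the Xist covariate, in whose fit control 3 alone of the controls had an Xist level near that of the GnRH arrays. The count over all probe sets, 144, was 90 with quantile normalization, 93 with cyclic loess, 74 with a pseudocount of 16, 3020 with array weights, 378 with the Xist covariate, 341 at a threshold of 0.10, and 20 to 2309 with 1 array left out. The count of member probe sets, 1, was 0 with robust variances or the pseudocount, 4 with array weights, 2 at 0.10, and 0 to 6 with 1 array left out. Without control 3, an alternative added after the data were seen, the groups did not overlap on 9 of the 17, against 44.3% of all probe sets.

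For the lists, array weights gave counts of 1 in the LKB1 list, 4 in the AMPK list, 1 among tau kinases and phosphatases, 6 among other microtubule-associated proteins, 1 among tubulins and 4 among motors. These weights were lowest for control 3 (0.298). The Xist covariate gave 1 in the AMPK, microtubule-associated, tubulin and motor lists. The substrate list went from 1 to 0 with the replicate block, the Xist covariate and the mean of a gene's probe sets. Microtubule-associated proteins had 1 with robust variances, 1 with the replicate block and 2 at 0.10. With 1 array left out the counts were 0 to 1 in the LKB1 and substrate lists, 0 to 3 in the AMPK and motor lists and 0 to 4 among microtubule-associated proteins, with the highest of each without control 3. The causes were not tested. With the replicate block the limma adjusted p was 0.0536 for Hdac5 and 0.0395 for Map7d1, and the block moved no other count by over 1.5 times. Deviations of same-numbered arrays correlated at 0.159, -0.0489 and 0.156, and control 2 correlated better with another number (0.18), so the numbers were not taken to pair the samples. Of the 5 genes most like Mark2, 1 stayed at the top by Spearman correlation, where 78 probe sets were tied, and 0 by deviations from the group means. Their own values stayed high, at 0.943 to 1 by Spearman correlation and 0.973 to 0.992 by deviations.

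No detection calls were used here, so no probe set, among them the dim ones of Stk11 and Map2, was called present or absent.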
